A study of Arabidopsis thaliana with 12 samples.

Results

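The roots and the aerial part of wild-type Arabidopsis seedlings were compared across all genes. The comparison rests on the 3 root libraries and the 3 aerial libraries labelled WT, 6 of the 12 RNA-seq libraries of the series, chosen by their labels alone. All plants were of the Columbia ecotype. After stratification at 4 °C they grew on vertical plates of agar with Murashige and Skoog salts at reduced strength, under days of 16 h light and 8 h dark. The labels name no mutation, transgene or treatment for these groups. Both organs were taken when the dark period ended, and the labels call the replicates independent biological samples. The other 6 libraries, 3 of roots and 3 of the aerial part labelled psp1 for a mutation in phosphoserine phosphatase, serve below only for a second look at the organ difference.

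The aerial part of a seedling holds cotyledons, leaves, the hypocotyl and the shoot apex. Its green plastids capture light, fix carbon dioxide in the Calvin cycle and store starch that is broken down at night, while stomata and a waxy cuticle control the loss of water. The root grows from a meristem at its tip, takes up minerals through its hairs and outer layers, and passes them through an endodermis sealed by the Casparian strip and by suberin into the xylem, which carries them upwards. The plastids of roots are not green, and import sugar phosphates in place of making them from light. At the end of the night, transcripts of the morning clock genes are near their daily peak and those of the evening genes near their trough. These are whole organs, so for every gene below, fewer cells of a type and less RNA per cell cannot be told apart.

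Stretches upstream of 4 genes are shown because the results turn on their groups: an antenna protein, the activator of Rubisco, a morning clock gene and a suberin enzyme. Each is the called member of its list with the highest level whose 250 bases upstream of the annotated start hold the motif searched for that list. Each is printed 5′ to 3′ on the gene's own strand, from the TAIR10.1 assembly, in lower case. Capitals mark matches to CACGTG (the G-box), GATAAG (the I-box) and AATATCT (7 bases of the longer evening element, which was not searched whole); the capitals AGATATT and CTTATC are AATATCT and GATAAG read on the other strand.
LHCB2.1, chr2:1824481-1824730, minus strand: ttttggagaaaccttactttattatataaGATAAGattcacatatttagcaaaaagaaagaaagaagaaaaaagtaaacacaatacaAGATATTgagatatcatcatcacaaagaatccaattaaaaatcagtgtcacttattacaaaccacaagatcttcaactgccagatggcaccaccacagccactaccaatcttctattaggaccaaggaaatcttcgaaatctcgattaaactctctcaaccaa
RCA, chr2:16573693-16573942, minus strand: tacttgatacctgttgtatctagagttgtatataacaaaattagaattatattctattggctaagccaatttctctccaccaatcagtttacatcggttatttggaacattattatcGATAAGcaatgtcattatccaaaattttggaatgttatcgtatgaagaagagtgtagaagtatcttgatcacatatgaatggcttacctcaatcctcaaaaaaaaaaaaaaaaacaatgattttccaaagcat
CCA1, chr2:19245341-19245590, plus strand: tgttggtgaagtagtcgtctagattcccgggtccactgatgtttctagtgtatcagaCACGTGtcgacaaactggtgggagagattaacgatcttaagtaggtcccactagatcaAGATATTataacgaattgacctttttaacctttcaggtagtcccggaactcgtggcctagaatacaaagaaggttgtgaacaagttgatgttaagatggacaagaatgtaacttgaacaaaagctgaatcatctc
CYP86A1, chr5:23768112-23768361, minus strand: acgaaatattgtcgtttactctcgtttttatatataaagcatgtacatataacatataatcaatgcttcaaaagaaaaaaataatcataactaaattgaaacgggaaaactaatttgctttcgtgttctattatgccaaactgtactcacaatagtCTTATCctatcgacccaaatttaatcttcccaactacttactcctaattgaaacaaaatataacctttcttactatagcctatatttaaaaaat
The I-box of LHCB2.1 lay 221 to 216 bases before the start, that of RCA 133 to 128 bases before it, and that of CYP86A1 94 to 89 bases before it. In CCA1 the G-box lay 193 to 188 bases before the start and the 7-base AATATCT 135 to 129 bases before it. A match describes the letters of the window and says nothing about a factor that may bind there.

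Levels are counts relative to the library's total (CPM) after scaling between libraries by TMM factors, and are given for libraries 1, 2 and 3 of each organ. A log2 difference is that of roots over the aerial part, positive where roots were higher, with an SE from the spread of the 3 libraries of each organ. Where an organ has few counts, that SE understates the error. Adjusted p-values come from edgeR's exact test with Benjamini-Hochberg adjustment over all genes tested, unless another test is named, and a gene was called at an adjusted p under 0.01. Total counts were between 7302386 and 8958217 in the aerial libraries and between 7445059 and 9590308 in the root libraries. The coefficient of biological variation was 11.4% in the aerial part and 15.1% in roots. Log2 CPM correlated across genes at 0.984 to 0.987 within the aerial part, at 0.975 to 0.982 within roots and at 0.582 to 0.605 between the organs.

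Of 18202 genes with enough counts to test, 11729 (64.4%) differed between the organs. Higher in roots were 6114 genes (33.6%), and higher in the aerial part 5615 (30.8%). At least 4-fold higher in roots were 2543 genes (14%), and at least 4-fold higher in the aerial part 2246 (12.3%). At least 16-fold differences were called for 1100 genes in the direction of roots (6.04%) and for 967 in that of the aerial part (5.31%). Before adjustment, 13308 genes (73.1%) had a p under 0.05. The libraries of the organs did not overlap for 13494 genes (74.1%). The median log2 difference of all genes tested was 0.03. The split between the directions depends on the scaling: when CPM were taken against library totals alone, 9109 genes were called higher in roots and 3663 in the aerial part, with the median of all genes shifted by 0.51. A gene that is low in one organ passes the filter on low counts through the other, so 207 genes with no count in the aerial part and 122 with none in roots were among those tested. Genes at least 4-fold higher in the aerial part took 41.4% of its scaled counts, while genes at least 4-fold higher in roots took 17% of the scaled counts there.

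**Figure D1:**
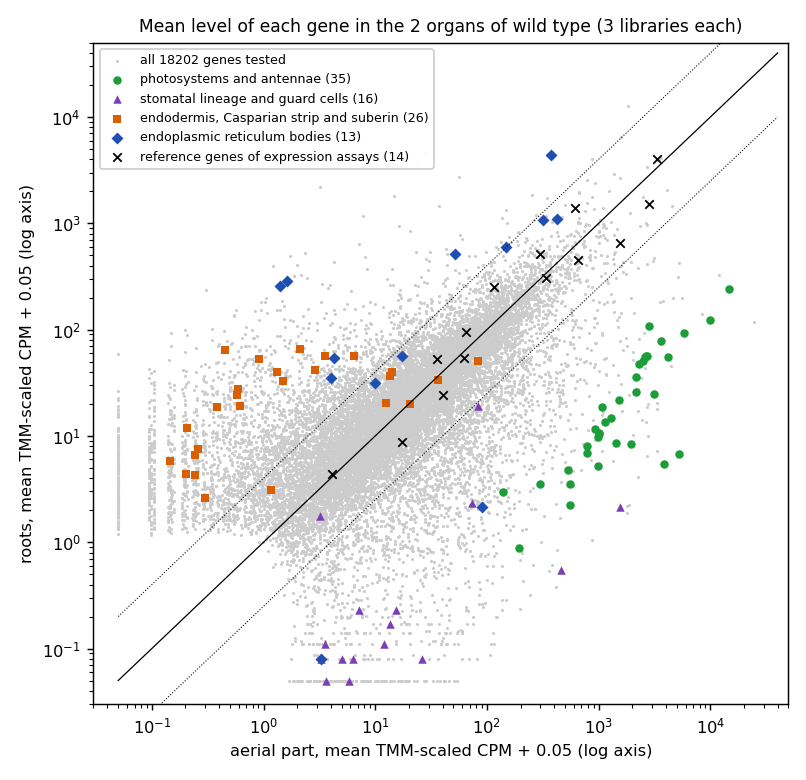
Mean level of each of the 18202 genes tested in the aerial part (horizontal axis) and in roots (vertical axis), in TMM-scaled CPM plus 0.05 on log axes, as the mean of 3 libraries an organ. The solid line marks equal levels and the dotted lines a 4-fold difference; all 35 photosystem and antenna genes lie under the lower dotted line, and the 14 genes used as references in expression assays lie between the dotted lines.

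The largest differences in favour of the aerial part, among genes with at least 200 CPM there, were in photosynthetic proteins, in carbonic anhydrases and in myrosinases. LHCB1.1, an antenna protein of photosystem II (AT1G29920, TAIR10.1 chromosome 1, 10474656 to 10475969, minus strand), had 5013, 6165 and 4683 CPM in the aerial libraries and 3.72, 7.80 and 8.60 CPM in the root libraries. Every aerial library stood far above every root library, with a log2 difference of -9.60 ± 0.38 (adjusted p = 2.12e-256). CA1 and CA2, carbonic anhydrases that interconvert carbon dioxide and bicarbonate, had means of 1795 ± 74.5 and 1792 ± 100.0 CPM (SD, n = 3) in the aerial part. In roots their means were 2.12 ± 1.22 and 1.85 ± 0.969 CPM. The widest gap in this group belonged to AT2G10940, annotated as a lipid-transfer family protein, at 363, 498 and 374 CPM in the aerial part and 0, 0.363 and 0.621 CPM in roots. Its log2 difference was -10.14 ± 0.58 (adjusted p = 5.89e-288). SSL4, a strictosidine synthase-like protein, and FRO7, a ferric reductase of the chloroplast, had log2 differences of -9.65 and -9.59; FRO7 shares 92.5% of its coding sequence with FRO6, and reads may have been split between them.

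Among the genes of at least 16-fold difference, those with the most counts in the aerial part also included enzymes of primary metabolism. NIA2, a nitrate reductase that makes nitrite from nitrate, had 5979, 5789.8 and 5026 CPM in the aerial libraries against 211, 202 and 177 CPM in those of roots. The organs did not overlap, and the log2 difference was -4.83 ± 0.11 (adjusted p = 6.99e-213). CP5 and AT1G74470, annotated as a lipid transport family protein and an oxidoreductase, had log2 differences of -4.02 and -4.55.

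In roots the largest differences, again among genes with at least 200 CPM there, belonged to lectins, secreted proteins and enzymes of specialised metabolism. AT1G52070, annotated as a mannose-binding lectin, had 0, 0.288 and 0.486 CPM in the aerial libraries and 183, 283 and 246 CPM in roots. With 5 counts in all aerial libraries together and 7525 in those of roots, the log2 difference was 9.85 ± 0.52 (adjusted p = 1.58e-197). GRP9, a glycine-rich protein (AT2G05440, TAIR10.1 chromosome 2, 1993038 to 1994177, plus strand), had 3.09, 3.03 and 3.40 CPM in the aerial part and 2505, 1973 and 2116 CPM in roots. All 3 root libraries lay far above the aerial ones, with a log2 difference of 9.43 ± 0.11. MLP-300B, a myrosinase-binding-like protein, and SBT4.12, a protease of the subtilase family, had log2 differences of 8.39 ± 0.66 and 7.71 ± 0.21. AT5G64100, a peroxidase, and AT5G37990, a methyltransferase, had differences of 8.20 ± 0.23 and 7.83 ± 0.13. The pair of neighbouring TPS-CIN genes (AT3G25820 and AT3G25830), which make the monoterpene 1,8-cineole, have identical coding sequences, so their equal difference of 7.44 ± 0.12 cannot be assigned to either.

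The genes with the most counts among those at least 16-fold higher in roots included a cysteine protease, an MLP-like protein, glycine-rich proteins and carriers that load the xylem. AT4G11320, annotated as a papain-type cysteine protease, had 25.4, 27.5 and 30.1 CPM in the aerial part and 4539.7, 4926 and 4662 CPM in roots. MLP34, an MLP-like protein, had 24.0 ± 7.35 and 3601 ± 139 CPM, a log2 difference of 7.23 ± 0.28 (adjusted p = 5.32e-214). Neither gene overlapped between the organs. DOT1, a glycine-rich protein, differed by 5.60 ± 0.13, DOX1, an enzyme that oxidises fatty acids, by 7.26 ± 0.19 and the transporter ABCG35 by 6.52 ± 0.37. AT3G25190, of a vacuolar iron transporter family, and AT2G31390, a sugar kinase family protein, differed by 5.87 ± 0.38 and 5.36 ± 0.21.

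The list of photosystem and antenna genes separated the organs without exception. All 35 members were tested, all 35 were called higher in the aerial part (30.8% of all genes were) and all 35 by at least 4-fold, with a median log2 difference of -6.40 beside 0.03 for all genes. No member overlapped between the organs, where 74.1% of all genes did not. The summed level of the list was 79791 to 92745 CPM in the aerial libraries and 1187 to 1250 CPM in those of roots, so that roots held 1.404% of the aerial level. LHCB2.1, of the mobile antenna, whose upstream stretch is shown above, had 5816, 5977 and 5751 CPM in the aerial part and 95.3, 92.3 and 93.0 CPM in roots. That is a difference of -5.97 ± 0.02, well inside the range of the list. LHCB5, a minor antenna protein, had 12068, 8606 and 9239.6 CPM (aerial) and 109, 108 and 149.6 CPM (roots), with a difference of -6.35 ± 0.22 (adjusted p = 2.08e-186). PSAE1, a subunit of photosystem I, had 195 ± 38.2 CPM in the aerial part and 0.827 ± 0.486 CPM in roots; a gene annotated on the opposite strand overlaps its coding sequence, and reads of the pair cannot be told apart.

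The antenna genes of the LHCB1 group differed among themselves. LHCB1.3 had 14986, 16514 and 12379.9 CPM in the aerial part and 253, 239.8 and 235 CPM in roots, a difference of -5.92 ± 0.13. LHCB1.4 had 4155, 4260.4 and 3008 CPM in the aerial part and 0.789, 8.16 and 7.36 CPM in roots. Root library 1 stood at less than 1 CPM and the other root libraries above 7 CPM, and the log2 difference was -9.44 ± 1.00 (adjusted p = 1.09e-48). LHCB1.2 and LHCB2.3 differed by -7.85 ± 0.34 and -7.95 ± 0.31. Members of the LHCB1 group share up to 96.4% of their coding sequence, and LHCB2.1 shares 96.6% with LHCB2.2, so the shares among members are uncertain where reads match several of them.

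Genes of the Calvin cycle and of photorespiration, the pathway that recovers carbon after Rubisco takes up oxygen, were also higher in the aerial part. Of 27 members tested, 25 were called higher there (30.8% of all genes were) and 24 by at least 4-fold. The median log2 difference was -6.60, and the summed level in roots was 2.00% of that in the aerial part. RCA, the activase of Rubisco (AT2G39730, TAIR10.1 chromosome 2, 16570746 to 16573692, minus strand), had 25157, 23616 and 24349 CPM in the aerial part and 104, 123 and 124 CPM in roots. The organs were separated by -7.70 ± 0.09 on the log2 scale. The small subunits of Rubisco, RBCS1B, RBCS2B and RBCS3B, had means of 1853 ± 293, 872 ± 134 and 2239 ± 431 CPM in the aerial part. In roots they had 2.18 ± 1.52, 1.00 ± 0.675 and 4.07 ± 1.00 CPM. These genes share up to 94.3% of their coding sequence. CP12-2, a small protein that holds Calvin cycle enzymes together in the dark, had 37.6, 50.7 and 38.4 CPM in the aerial part and not a single count in roots. Taken against a floor of 3 counts over the root libraries together, it was at least 439-fold higher in the aerial part.

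Glycolate oxidases, which oxidise glycolate in peroxisomes, went in both directions. GOX1 had 3295, 3195 and 3393 CPM in the aerial part and 4.40, 7.89 and 9.23 CPM in roots. GOX3 was the 1 list member called higher in roots (against library totals there were 2), with 0.672, 0.721 and 0.486 CPM in the aerial part and 39.1, 47.0 and 52.1 CPM in roots, and a difference of 6.16 ± 0.17 (adjusted p = 1.34e-103). Root libraries therefore held the higher level of GOX3 and aerial libraries that of GOX1, and neither gene overlapped between the organs. Per coding length, GOX1 reached 2492 TPM (a share of transcripts corrected for length, as deposited, mean of 3) in the aerial part, and GOX3 49.6 TPM in roots. The member without a call, CP12-3, named after its value was seen, had 2.28, 4.61 and 3.24 CPM (aerial) and 3.16, 5.801 and 5.23 CPM (roots).

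All 16 genes of chlorophyll synthesis were called higher in the aerial part (30.8% of all genes were). Of these 15 were at least 4-fold higher, and the median was -4.31. CHLH, the large subunit of the magnesium chelatase that starts the chlorophyll branch, had 12872, 11287 and 11729 CPM in the aerial part and 332, 316 and 331 CPM in roots. The difference was -5.20 ± 0.06 (adjusted p = 7.09e-274). CRD1, of the oxidative cyclase, had 2376 ± 68.4 and 34.9 ± 0.830 CPM. GUN4, an activator of the chelatase, differed by -5.74 ± 0.35, the reductase PORC, which needs light, by -5.59 ± 0.32 and PCB2, which reduces a vinyl group of the pigment, by -4.53 ± 0.22. The summed level of the list in roots was 4.13% of that in the aerial part, a larger share than for the photosystem and Calvin cycle lists.

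Starch genes were split. Of 19 members tested, 14 were called higher in the aerial part (30.8% of all genes were), 8 by at least 4-fold. In roots 2 were called higher (33.6% of all genes were), with 4 against library totals. Without aerial library 2, aerial library 3 or root library 3 there was 1 call in roots. The list's median was -1.65. BAM3, the chloroplast β-amylase that releases maltose at night, had 2098, 2046 and 1882 CPM in the aerial part and 8.57, 12.4 and 9.31 CPM in roots. GBSS1, which makes amylose, had 477, 464 and 441 CPM (aerial) and 3.16, 4.35 and 3.28 CPM (roots). Both were more than 100-fold apart between the organs, with differences of -7.63 ± 0.17 and -6.99 ± 0.14. Large subunits of ADP-glucose pyrophosphorylase, the first step of synthesis, went in both directions. APL1 had 551 ± 13.04 CPM in the aerial part and 16.1 ± 2.17 CPM in roots, with a difference of -5.10 ± 0.11 (adjusted p = 8.61e-251). APL2 had 13.8, 12.8 and 11.02 CPM in the aerial part and 16.7, 17.9 and 22.6 CPM in roots, with a difference of 0.60 ± 0.16 (adjusted p = 0.00222). Its organs did not overlap, but the call was lost when any of 3 libraries was left out (aerial 2, aerial 3 or root 3). ISA3, a debranching enzyme of starch breakdown, had 4.43, 5.05 and 5.99 CPM (aerial) and 20.1, 19.3 and 19.4 CPM (roots), a difference of 1.93 ± 0.12 in favour of roots. BAM1 and the phosphatase-like LSF1 differed by -2.44 ± 0.10 and -3.01 ± 0.50 in favour of the aerial part. The members without a call, named after their values were seen, were APL3 at -0.08, DPE1 at -0.02 and DPE2 at 0.35.

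**Figure D2:**
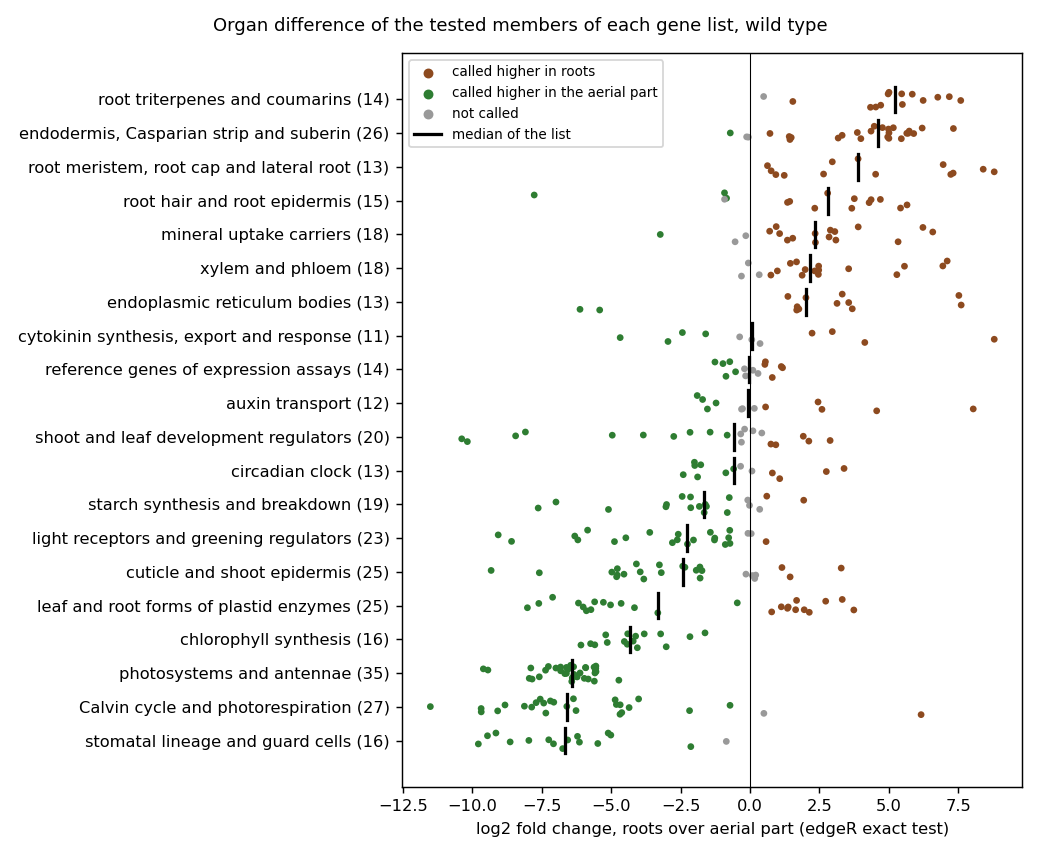
Log2 fold change of roots over the aerial part (edgeR exact test, horizontal axis) of each tested member of the 20 gene lists with a tested member; brown points were called higher in roots, green points in the aerial part, grey points were not called, and the bar is the list's median. The medians run from -6.66 in the stomatal list to 5.23 in the list of root triterpenes and coumarins.

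Regulators of shoot and leaf development did not go one way. Of 27 members 20 were tested, with 10 calls in favour of the aerial part, 5 in favour of roots and a median of -0.58. Over all genes, 30.8% were called higher in the aerial part and 33.6% in roots. YABBY genes, which mark the lower face of leaves, had no count in the root libraries. YAB3 had 17.5, 23.1 and 17.3 CPM in the aerial libraries and YAB1 19.2, 16.7 and 14.3 CPM, which put them at least 201-fold and 175-fold higher in the aerial part against the floor of 3 counts over the root libraries. YAB2 and YAB5 were at least 52.6-fold and 41.0-fold higher. STM, which keeps the shoot meristem undifferentiated, had 7.52, 6.92 and 7.94 CPM in the aerial part and 0.451, 0 and 0.266 CPM in roots, with a difference of -4.96 ± 0.47 (adjusted p = 6.03e-32). TCP10, a regulator of leaf growth, differed by -3.84 ± 0.33.

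The 5 members called higher in roots were homeobox genes and ANT, a regulator of organ growth. KNAT1, a relative of STM, had 1.88, 2.74 and 2.59 CPM in the aerial part and 16.8, 16.0 and 20.2 CPM in roots. Its difference of 2.88 ± 0.18 (adjusted p = 6.62e-31) was opposite to that of STM, and the organs did not overlap for either. KNAT6 had 3.15 ± 0.873 and 13.6 ± 2.56 CPM, a difference of 2.12 ± 0.27. REV and PHB, which set the upper side of leaves and pattern vascular tissue, had 41.1 ± 3.04 and 60.2 ± 7.60 CPM in the aerial part. In roots they had 155 ± 11.4 and 101.4 ± 9.67 CPM, with differences of 1.92 ± 0.09 and 0.75 ± 0.13. ANT differed by 0.93 ± 0.16 (adjusted p = 2.57e-06). Among the 7 members not tested, WUS and CLV3 of the shoot meristem had no count in any wild-type library.

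The stomatal list had the lowest median of all lists, -6.66. Of 20 members 16 were tested, and 15 of these were called higher in the aerial part (30.8% of all genes were), all by at least 4-fold. The summed level was 2223 to 2356 CPM in the aerial part and 24.7 to 27.8 CPM in roots, 1.16% of it. The regulators of the lineage had few counts. FAMA, which makes guard cells, had 25.8, 29.3 and 24.1 CPM in the aerial part and 1 count in all root libraries, an aerial-to-root ratio of scaled counts of 825 (147 to 32648) with its 95% counting interval. SPCH, which starts the lineage, had 3.49, 3.60 and 3.73 CPM in the aerial part and no count in roots, at least 37.4-fold. MUTE, which acts between them and was named after its counts were seen, was not tested, with 10 aerial counts and 0 root counts. The receptor kinase ERL2 and the guard cell potassium channel KAT1 had 11.95 ± 1.31 and 13.5 ± 0.483 CPM in the aerial part. The myrosinases TGG1 and TGG2, abundant in guard cells and in myrosin cells, made up most of the summed level. TGG1 had 1523, 1589 and 1564 CPM in the aerial part and 0.338, 2.99 and 3.02 CPM in roots. TGG2 had 486, 509 and 396 CPM and 0.226, 0.635 and 0.621 CPM, with a difference of -9.78 ± 0.32. The member without a call, SCAP1, had a log2 difference of -0.85 (adjusted p = 0.0201).

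Of 25 tested genes of the cuticle and the shoot epidermis, 18 were called higher in the aerial part (30.8% of all genes were), 14 by at least 4-fold. In roots 3 were called higher (6 against library totals), where 33.6% of all genes were. The list's median was -2.42. CER6, which lengthens the fatty acids of wax, had 109, 121 and 111 CPM in the aerial part and 0.113, 1.18 and 0.355 CPM in roots, with a difference of -7.59 ± 0.59 (adjusted p = 4.04e-236). CER2, which acts with it, had 58.8, 53.8 and 37.9 CPM and 2 counts in all root libraries. LACS1, which activates the fatty acids, differed by -4.78 ± 0.07. The epidermal homeobox genes ATML1 and PDF2 differed by -4.98 ± 0.23 and -4.80 ± 0.16. In roots, by contrast, KCR1, the reductase of the same elongation complex, had 42.3, 46.0 and 72.3 CPM in the aerial part and 112, 153 and 171 CPM in roots. Its difference was 1.44 ± 0.30 (adjusted p = 1.43e-11). GPAT6, an acyltransferase of cutin synthesis, differed by 1.15 ± 0.23 and CER4, a reductase that makes wax alcohols, had 3 counts in the aerial part and 48 in roots.

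Light receptors and regulators of greening were mostly higher in the aerial part: 20 of 23 tested were (30.8% of all genes), 13 by at least 4-fold. In roots 1 was called higher (33.6% of all genes were). GLK1, which activates photosynthesis genes (AT2G20570, TAIR10.1 chromosome 2, 8855302 to 8857758, plus strand), had 57.0, 64.7 and 56.4 CPM in the aerial part and 3 counts in all root libraries. GNC and CGA1, GATA factors of greening, had 39.9, 42.5 and 45.2 CPM and 24.7, 27.2 and 28.8 CPM in the aerial part. In roots they had 3 and 11 counts over all 3 libraries. PIF5 and PIF4, which bind phytochrome, had 242 ± 20.7 and 10.1 ± 0.512 CPM in the aerial part and 3.00 ± 0.711 and 0.173 ± 0.169 CPM in roots. PHYC, a phytochrome, was the member called in the other direction, with 70.0, 66.6 and 77.4 CPM in the aerial part and 148, 100.1 and 71.9 CPM in roots. Root library 3 lay within the aerial values and root library 1 far above them, so the organs overlapped. The difference was 0.58 ± 0.31 (adjusted p = 0.00993), and without root library 1 it was 0.27 and not called. The call was also lost under the quasi-likelihood test, with RLE factors and without any one of the aerial libraries or root library 2, which left the list with no call in favour of roots; against library totals there were 3.

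The clock genes went both ways. The list's 13 tested members had 7 calls in favour of the aerial part and 4 in favour of roots. Over all genes, 30.8% and 33.6% were so called. The list's median was -0.59. Of the 11 called, 2 in each direction were at least 4-fold apart, and against library totals the calls were 5 and 5. LHY and CCA1, the transcription factors of the morning, had 1692, 1742 and 1816 CPM and 1280.4, 1070.4 and 1193 CPM in the aerial part. In roots they had 299, 346 and 346 CPM and 287, 309 and 289 CPM. Both stood about 4-fold to 5-fold higher in the aerial part, with differences of -2.40 ± 0.08 (adjusted p = 5.05e-78) and -2.002 ± 0.08 (adjusted p = 3.15e-55). LNK2, a coactivator that peaks in the morning, differed by -1.99 ± 0.08, and ZTL, an F-box protein and blue light receptor, by -1.89 ± 0.11. The members called higher in roots were pseudo-response regulators and GI, an evening gene. PRR9 had 1.75, 1.59 and 1.62 CPM in the aerial part and 18.4, 16.95 and 16.9 CPM in roots, a difference of 3.38 ± 0.05 (adjusted p = 2.46e-41). TOC1, the evening member of its family, had 31.4, 21.0 and 28.0 CPM in the aerial part and 58.0, 62.5 and 48.5 CPM in roots, a difference of 1.07 ± 0.20. PRR7 differed by 0.80 ± 0.11. GI had 0.537, 0.144 and 0.324 CPM in the aerial part and 1.35, 2.72 and 2.93 CPM in roots, a difference of 2.75 ± 0.44 (adjusted p = 3.73e-06). No clock gene named here overlapped between the organs. One time of day was sampled, so a difference in level and a difference in timing cannot be told apart.

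The sequence AATATCT was found in the 250 bases upstream of 7 of the 13 tested clock genes, and the G-box CACGTG upstream of 5. Over all 18080 tested genes with such a window, the shares were 9.96% and 7.37%. The I-box GATAAG was in 12.4% of all windows (95% exact binomial interval, 11.9 to 12.9%), in 15.9% (14.4 to 17.5%) of those of genes at least 4-fold higher in the aerial part and in 11.4% (10.2 to 12.7%) of those at least 4-fold higher in roots. It was upstream of 11 of 35 photosystem genes, 5 of 27 Calvin cycle genes and 3 of 26 endodermis genes. Other lists mostly higher in the aerial part held it less often: 1 of 16 chlorophyll genes, 1 of 19 starch genes, 1 of 25 cuticle genes and 2 of 23 light receptor and greening genes. AACCCTA, also searched, was in 5.17% of all windows, 3.90% (aerial) and 3.51% (roots). A root hair element was in 0.680%, 0.550% and 1.14% of the same groups. For AATATCT the shares were 10.9% in the genes of the aerial part and 10.6% in those of roots. Both strands were searched, windows of neighbouring genes may share bases, and shares of lists are given without a test.

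Of 29 genes of the endodermis, the Casparian strip and suberin, 26 were tested and 23 were called higher in roots (33.6% of all genes were), 19 by at least 4-fold, with a median log2 difference of 4.62. Their summed level was 198 to 211 CPM in the aerial part and 716 to 795 CPM in roots. FAR4, a reductase that makes alcohols of suberin, had 0.269, 0.288 and 0.648 CPM in the aerial part and 77.7, 56.0 and 60.4 CPM in roots. The organs were 7.32 ± 0.30 apart (adjusted p = 9.5e-124). CYP86B1, which oxidises very long chains of suberin, had 0.806, 1.297 and 0.486 CPM (aerial) and 54.2, 46.0 and 58.2 CPM (roots), a difference of 5.89 ± 0.33. CYP86A1, which oxidises shorter chains and whose upstream stretch is shown above, had 2.02, 1.297 and 2.92 CPM in the aerial part and 79.3, 64.4 and 54.8 CPM in roots. Its difference was 5.001 ± 0.34.

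PER64, the peroxidase that lays down the lignin of the Casparian strip, had 0.269, 0.577 and 0.162 CPM (aerial) and 18.2, 22.6 and 15.7 CPM (roots) and a difference of 5.73 ± 0.34 (adjusted p = 6.72e-52). AT2G48130, a lipid-transfer family protein, had 2 counts in the aerial part and 181 in roots. KCS20, an elongase that also serves wax, was the member called in the other direction, with 83.0, 95.002 and 69.3 CPM in the aerial part and 53.0, 50.2 and 48.0 CPM in roots. That difference of -0.71 ± 0.14 was not called when CPM were taken against library totals. SHR and SCR, the regulators that specify the endodermis, were the members without a call. SHR had 21.8, 23.1 and 16.8 CPM in the aerial part and 22.7, 18.4 and 18.4 CPM in roots, and SCR 35.2, 33.4 and 41.3 CPM (aerial) and 39.8, 27.0 and 34.2 CPM (roots); both genes were named after their values were seen, and their organs overlapped.

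All 13 tested genes of the root meristem, root cap and lateral roots were called higher in roots (33.6% of all genes were). Of these 9 were at least 4-fold higher (14% of all genes were), and the median was 3.89. The other 8 of the 21 were too low to test. Of the 21, 11 had no count in the aerial part. Those tested among them passed the low-count filter through roots alone, so their calls could hardly go the other way. PLT1, a regulator of the root stem cell niche (AT3G20840, TAIR10.1 chromosome 3, 7300444 to 7303693, plus strand), had no count in the aerial part and 4.40, 8.07 and 6.65 CPM in roots, at least 44.6-fold higher there. BBM, a relative, had 5.07, 6.07 and 3.46 CPM in roots and no count in the aerial part, at least 33.2-fold. PLT3 had 2.15, 2.02 and 1.13 CPM (aerial) and 22.2, 28.6 and 29.4 CPM (roots), a difference of 3.89 ± 0.28 (adjusted p = 2.98e-52). BRN2, of the root cap, had 1 count in the aerial part and 245 in roots. MGP, a partner of SHR and SCR, differed by 4.52 ± 0.53. SMB, another root cap gene, had 0 and 53 counts and was not tested; it was named after its counts were seen.

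Genes of root hairs and the root epidermis were thinly covered, since 13 of 28 had too few counts to test. Of the 15 tested, 11 were called higher in roots (33.6% of all genes were), 9 by at least 4-fold. In the aerial part 3 were called higher (30.8% of all genes were), and the median was 2.79. RHD2, the NADPH oxidase of growing hairs, had 0.403, 1.297 and 0.648 CPM in the aerial part and 36.4, 38.9 and 44.2 CPM in roots. The difference was 5.65 ± 0.38 (adjusted p = 2.98e-97). CSLD3, a cellulose synthase-like protein of the hair tip, had 58.6, 61.7 and 60.3 CPM (aerial) and 168, 142 and 149.7 CPM (roots), a difference of 1.35 ± 0.07. EGL3, a regulator of epidermal cell fate, differed by 2.33 ± 0.29. The 3 called in the other direction were GL2, TRY and SHV3. GL2, which acts in leaf hairs as well as in the root epidermis, had 36.5, 32.9 and 25.6 CPM in the aerial part and 19.2, 12.1 and 19.1 CPM in roots. TRY, a repressor of leaf hair fate, had 65 counts in the aerial part and none in roots, at least 32.9-fold. SHV3, a wall-associated protein, differed by -0.85 ± 0.16; the calls of GL2 and SHV3 were lost against library totals. All members together summed to 209 to 220 CPM in the aerial part and 283 to 329 CPM in roots.

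Of 12 tested auxin transport genes, 5 were called higher in roots (33.6% of all genes were) and 4 in the aerial part (30.8% of all genes were), shares near those of all genes, with a median of -0.06. PIN2, an efflux carrier of the root tip, had 0.269, 0.288 and 0.324 CPM in the aerial part and 82.8, 81.6 and 76.8 CPM in roots. The difference of 8.04 ± 0.06 (adjusted p = 1.64e-188) was the widest of the list. PIN3, PIN4 and PIN7 went the other way, with means of 243 ± 22.5, 134 ± 6.74 and 72.0 ± 9.60 CPM in the aerial part. In roots they had 64.8 ± 6.80, 46.1 ± 1.17 and 30.7 ± 5.21 CPM, differences of -1.90 ± 0.12, -1.53 ± 0.05 and -1.22 ± 0.19. Among the influx carriers LAX3 was higher in roots, by 2.59 ± 0.17, and LAX1 in the aerial part, at -1.71 ± 0.21. ABCB4, a transporter of the root epidermis, had 12.8, 11.1 and 14.4 CPM in the aerial part and 285, 298 and 318 CPM in roots.

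Of 11 tested cytokinin genes, 4 were called higher in roots and 4 in the aerial part, also near the shares of all genes (33.6% and 30.8%), with a median of 0.06. The calls in favour of roots were of genes for synthesis, export and reception, those in favour of the aerial part of response regulators; IPT3, ARR5 and ARR6, named after their values were seen, had no call. On the side of synthesis and export, IPT5, which makes the first intermediate, had no count in the aerial part and 7.67, 5.08 and 6.56 CPM in roots, at least 43.5-fold higher there. ABCG14, which exports cytokinin towards the shoot, had 15.9, 12.7 and 15.2 CPM in the aerial part and 110.3, 121 and 109 CPM in roots, a difference of 2.96 ± 0.11 (adjusted p = 7.17e-90). The receptor AHK4 differed by 2.23 ± 0.17. On the side of response, the type-A regulators ARR7 and ARR4, which cytokinin induces, had 35.6, 27.2 and 34.2 CPM and 105, 97.6 and 79.9 CPM in the aerial part. In roots they had 5.98, 5.71 and 6.21 CPM and 27.1, 30.4 and 35.9 CPM, differences of -2.44 ± 0.12 and -1.60 ± 0.17 in favour of the aerial part. Of the list's calls, 3 recurred in the libraries labelled psp1, those of IPT5, ABCG14 and AHK4. ARR7 and ARR4 were not called there, at -1.36 and 0.02.

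Of 18 tested genes of xylem and phloem, 15 were called higher in roots (33.6% of all genes were), 9 by at least 4-fold (14% of all genes). None was called higher in the aerial part, and the median was 2.16. The list holds many carriers that load the xylem, so its counts describe the genes chosen. Carriers that load the xylem had the widest gaps. NPF7.3, which loads nitrate (AT1G32450, TAIR10.1 chromosome 1, 11715147 to 11719988, minus strand), had 15.7, 13.7 and 14.3 CPM in the aerial part and 1618, 1983 and 1774 CPM in roots. The difference was 6.94 ± 0.10. PHO1, which loads phosphate, had 42.9, 31.4 and 36.8 CPM (aerial) and 1461, 1077 and 1797 CPM (roots), a difference of 5.29 ± 0.25 (adjusted p = 4.53e-128). The potassium channel SKOR had 1.07, 0.721 and 1.296 CPM in the aerial part and 141, 114 and 171 CPM in roots, a difference of 7.10 ± 0.26. The citrate carrier FRD3 and the zinc pump HMA4 differed by 5.56 ± 0.14 and 3.55 ± 0.08. The members without a call, named after their values were seen, were HMA2 at 0.33, SUC2 at -0.31 (adjusted p = 0.0343) and APL at -0.06. All members together summed to 637 to 737 CPM in the aerial part and 4762 to 5352 CPM in roots.

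Carriers of mineral uptake were mostly higher in roots, where 15 of 18 tested were called (33.6% of all genes were), 10 by at least 4-fold. The list's median was 2.35, with 1 call in the other direction. Without aerial library 3, or without root library 2, there were 2 such calls. PHT1;1, a phosphate carrier, had 0.134, 1.01 and 1.46 CPM in the aerial part and 62.8, 56.7 and 69.7 CPM in roots, a difference of 6.22 ± 0.68 (adjusted p = 3.15e-128); its coding sequence shares 97.7% with PHT1;2. The ammonium carrier AMT1;3 had 0.134, 0.432 and 0.162 CPM (aerial) and 26.6, 19.5 and 27.8 CPM (roots). IRT1, which takes up iron, had 0, 0.288 and 0.486 CPM in the aerial part and 10.04, 10.1 and 10.999 CPM in roots, and FRO2, which reduces iron at the surface, 1.48, 0.577 and 1.13 CPM (aerial) and 10.04, 8.07 and 9.58 CPM (roots). Both iron genes were higher in every root library than in any aerial library, by 5.33 ± 0.49 and 3.09 ± 0.33. The sulfate carrier SULTR1;2 differed by 3.89 ± 0.28. COPT2, a copper carrier, was the member called in the other direction, with 2.15, 4.32 and 2.11 CPM in the aerial part and 0.564, 0.0906 and 0.266 CPM in roots, a difference of -3.23 ± 0.49 (adjusted p = 4.68e-08).

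Genes that make triterpenes and coumarins in roots had the highest median of all lists, 5.23. Of 14 tested, 13 were called higher in roots (33.6% of all genes were) and 12 by at least 4-fold. The summed level was 37.8 to 45.5 CPM in the aerial part and 756 to 870 CPM in roots. F6H1, which makes the precursor of the coumarin scopoletin, had 1.48, 0.721 and 0.810 CPM in the aerial part and 189, 188 and 219 CPM in roots. The difference was 7.59 ± 0.27 (adjusted p = 6.7e-254). CYP82C4, which makes the coumarin sideretin, had 1 count in the aerial part and 212 in roots. The triterpene synthase PEN1 had 0.134, 0 and 0.648 CPM (aerial) and 18.04, 19.7 and 20.4 CPM (roots), a difference of 6.23 ± 0.57, and CYP71A16, an oxidase of the marneral pathway, 2 counts in the aerial part and 502 in roots. SDR4, a reductase of the thalianol group, had 3 and 287 counts. The member without a call, BGLU42, named after its value was seen, was at 0.49.

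Genes of the endoplasmic reticulum bodies, stores of β-glucosidases that act on damage, were all called. Of 13 genes 11 were higher in roots (33.6% of all genes were), 7 of them by at least 4-fold. In the aerial part 2 were higher (30.8% of all genes were), and the median was 2.01. PYK10, the main β-glucosidase of root bodies (AT3G09260, TAIR10.1 chromosome 3, 2840477 to 2843781, minus strand), had 389, 339.9 and 389 CPM in the aerial part and 3986, 4365 and 4762 CPM in roots. The organs were far apart, by 3.55 ± 0.10 (adjusted p = 7.31e-136). BGLU21 and BGLU22 had 1.57 ± 0.474 and 1.36 ± 0.792 CPM in the aerial part and 288 ± 19.5 and 259 ± 19.4 CPM in roots, differences of 7.52 ± 0.24 and 7.60 ± 0.39; their coding sequences are 93.3% identical. The lectin JAL31 differed by 3.68 ± 0.18. In the other direction, BGLU18, the β-glucosidase of leaf bodies, had 94.0, 92.7 and 84.9 CPM in the aerial part and 1.69, 2.27 and 2.31 CPM in roots, a difference of -5.41 ± 0.14 (adjusted p = 6.14e-181). The lectin JAL23 had 66 counts in the aerial part and 1 in roots.

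Plastid enzymes that exist in a leaf and a root form divided by form. Of 26 members, 25 were tested and all 25 were called (64.4% of all genes were). Of these 14 were higher in the aerial part (30.8% of all genes were) and 11 higher in roots (33.6% of all genes were). None overlapped between the organs, where 74.1% of all genes did not. Ferredoxins pass electrons to plastid enzymes. FD2, the main leaf form, had 1164, 1196 and 895 CPM in the aerial part and 13.2, 20.4 and 16.8 CPM in roots, and FD1 82.9, 79.7 and 62.7 CPM (aerial) and 0.789, 2.63 and 0.710 CPM (roots). FD3, the root form, had 4.57, 4.76 and 3.08 CPM in the aerial part and 24.0, 18.8 and 12.2 CPM in roots, with a difference of 2.13 ± 0.34 (adjusted p = 3.35e-13), opposite to -6.01 ± 0.22 for FD2. Per coding length, however, FD2 and FD3 stood at 66.2 and 66.7 TPM in roots. The ferredoxin-like FDC1 and FDC2 were higher in the aerial part, at -4.64 ± 0.36 and -4.16 ± 0.33. Ferredoxin-NADP reductases followed the names. LFNR1 and LFNR2 had 1244 ± 74.1 and 809 ± 125 CPM in the aerial part against 25.7 ± 1.66 and 11.2 ± 2.93 CPM in roots. RFNR2 had 8.60, 7.35 and 7.94 CPM in the aerial part and 75.7, 74.8 and 88.5 CPM in roots, and RFNR1 differed by 1.13 ± 0.20 (adjusted p = 1.14e-05).

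Glutamate synthases close the assimilation of ammonium. GLU1, the ferredoxin-dependent leaf form, had 2648, 2606 and 2696 CPM in the aerial part and 12.2, 12.4 and 16.1 CPM in roots. GLT1, which uses NADH, had 953, 946 and 898 CPM (aerial) and 2391, 2433 and 2295 CPM (roots), and GLU2 60.5, 57.5 and 55.7 CPM (aerial) and 181, 200.4 and 174 CPM (roots). Root libraries thus held more of GLT1 and GLU2 than any aerial library, with differences of 1.35 ± 0.04 and 1.68 ± 0.07, and less of GLU1, with -7.61 ± 0.13. Per coding length, GLU1 reached 382 TPM in the aerial part and GLT1 361 TPM in roots. GLN2, the plastid glutamine synthetase, differed by -5.02 ± 0.07.

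The same division held for plastid glyceraldehyde phosphate dehydrogenases, glucose phosphate dehydrogenases and translocators. GAPA1 and GAPA2, of the Calvin cycle, had 8361 ± 668 and 2736 ± 68.8 CPM in the aerial part and 141 ± 5.52 and 19.7 ± 3.96 CPM in roots. GAPCP1 and GAPCP2, the glycolytic forms, had 16.2 ± 1.87 and 2.06 ± 0.915 CPM in the aerial part and 215 ± 11.46 and 7.96 ± 0.145 CPM in roots. GAPCP1 was 3.74 ± 0.10 and GAPCP2 1.95 ± 0.34 higher in roots. G6PD1, the first enzyme of the oxidative pentose phosphate pathway, was higher in the aerial part at -3.32 ± 0.06, while G6PD2 and G6PD3 were higher in roots, by 1.64 ± 0.17 and 2.72 ± 0.05. The triose phosphate exporter TPT had 2149.8, 2076 and 1816 CPM in the aerial part and 51.0, 52.3 and 52.2 CPM in roots. GPT1, which imports glucose 6-phosphate, had 22.2, 22.5 and 24.5 CPM in the aerial part and 55.8, 65.8 and 57.2 CPM in roots, a difference of 1.37 ± 0.09 (adjusted p = 1.12e-21). The carriers of phosphoenolpyruvate went apart: CUE1 was higher in roots by 0.78 ± 0.15, and PPT2 had 21.2, 21.3 and 18.3 CPM in the aerial part and 2 counts in all root libraries. AT5G17630, a sugar phosphate carrier family member, had 21.1, 22.8 and 21.5 CPM (aerial) and 18.04, 13.6 and 16.1 CPM (roots) and a difference of -0.46 ± 0.12 (adjusted p = 0.00888), a call that 9 of 13 alternative settings did not keep. GPT2, the remaining member, had 2 counts in the aerial part and none in roots.

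**Figure D3:**
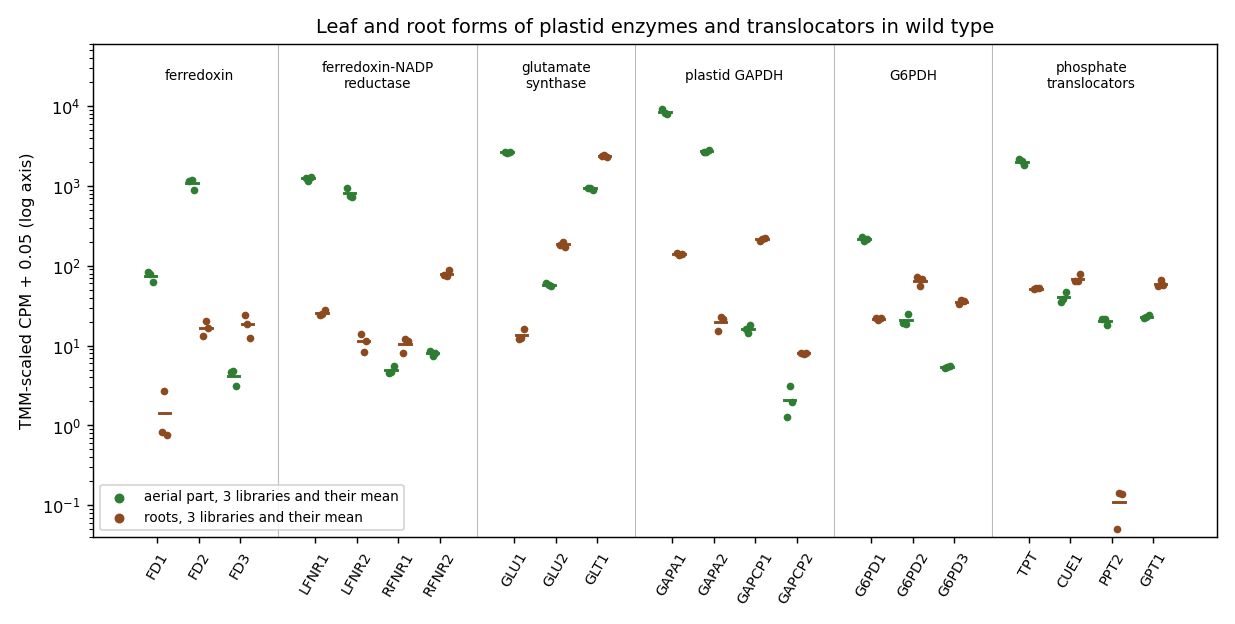
TMM-scaled CPM plus 0.05 (log axis) of leaf and root forms of plastid enzymes and translocators in the 3 aerial libraries (green) and the 3 root libraries (brown) of wild type; points are libraries and bars their means. In each family at least 1 member lies higher in the aerial part, such as GLU1, and at least 1 higher in roots, such as GLT1.

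Genes that serve as references in expression assays were called for 10 of 14 members, near the 64.4% of all genes, with 5 in each direction and none by 4-fold. Against library totals 6 were called higher in roots and 1 in the aerial part. Limma intervals (95%) of the log2 difference included 0 for 4 genes. For PP2AA3, a subunit of a protein phosphatase, the estimate was -0.21 (-0.52 to 0.09), with 58.2, 64.6 and 65.1 CPM in the aerial part and 67.3, 47.9 and 48.5 CPM in roots. For ACT8, an actin that shares 91.0% of its coding sequence with ACT2, it was -0.16 (-0.39 to 0.07). AT5G60390, an elongation factor with close copies, had 0.28 (-0.01 to 0.57), and UBC21 0.06 (-0.54 to 0.66) at only 4.01 ± 0.451 and 4.29 ± 1.32 CPM. The widest were ACT2, at 1612, 1732 and 1341 CPM in the aerial part and 706, 650.3 and 595 CPM in roots, and GAPC1, a cytosolic glycolytic enzyme, at 672, 591 and 575 CPM (aerial) and 1289, 1423 and 1422 CPM (roots). These pairs did not overlap between the organs, and differed by -1.26 ± 0.13 and 1.17 ± 0.08. Higher in roots were also YLS8, ACT7, MON1 and AT5G46630, by 1.12 ± 0.23, 0.80 ± 0.04, 0.55 ± 0.13 and 0.53 ± 0.04. Higher in the aerial part were AT4G26410, UBQ10, AT4G34270 and TUB4, at -0.98 ± 0.21, -0.87 ± 0.15, -0.73 ± 0.17 and -0.52 ± 0.03. Against library totals the estimates of PP2AA3 and ACT8 became 0.30 and 0.35, and TUB4, UBQ10, AT4G34270 and AT4G26410 were not called.

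Some of the widest differences stood next to each other on the chromosomes. Runs were of at least 4 neighbouring protein-coding genes of the annotation, all called and at least 16-fold apart in the same direction. They numbered 3 with 13 genes in roots and 1 with 4 genes in the aerial part. The longest lay on chromosome 4, from 8788659 to 8813593. It held the cytochrome P450 genes CYP705A4, CYP702A5 and CYP702A6 and the acyltransferase genes AT4G15390 and BIA1. AT4G15390 had 0.940, 0.144 and 1.296 CPM in the aerial part and 149.9, 149.8 and 150.1 CPM in roots, a difference of 7.56 ± 0.62; CYP705A4 differed by 5.14 ± 0.56. CYP702A5 and CYP702A6, 92.0% identical, had 1 count each in the aerial part, and root-to-aerial ratios of 384 (68.6 to 15182) and 98.2 (17.4 to 3906). BIA1, which inactivates brassinosteroids, had no aerial count and was at least 58.7-fold higher in roots.

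A second run on chromosome 4, from 7733114 to 7753210, held the terpene synthases TPS12 and TPS13, 94.1% identical, and the cytochrome P450 genes CYP71A19 and CYP71A20. TPS12 and CYP71A19 had 41.4, 48.9 and 58.5 CPM and 77.7, 70.3 and 72.0 CPM in roots, and 7 and 9 counts over the aerial libraries. TPS13 and CYP71A20 had no aerial count, and were at least 118-fold and 179-fold higher in roots. The spans of CYP71A19 and TPS13 overlap on opposite strands. The run on chromosome 1, from 19242654 to 19261794, held 4 receptor-like kinase genes, of which AT1G51830, AT1G51850 and AT1G51860 differed by 5.54 ± 0.35, 4.28 ± 0.27 and 4.30 ± 0.10, and AT1G51840 by at least 14.5-fold. The run of the aerial part, on chromosome 2 from 6510841 to 6544118, held AT2G15042, LTP, RLP19 and KCS8. The receptor-like RLP19 had 67.6, 71.2 and 91.9 CPM in the aerial part and 0.113, 1.45 and 2.13 CPM in roots, a difference of -5.87 ± 0.87. KCS8, an elongase, and AT2G15042 differed by -4.25 ± 0.20 and -5.61 ± 0.36, and LTP had 119 counts in the aerial part and 1 in roots.

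Transcripts of the plastid genome went with the aerial part. Of its 88 targets 67 were tested, and 66 were called higher in the aerial part and none in roots, with a median of -3.62. They made up 1.42 to 1.89% of the counts of the aerial libraries and 0.123 to 0.195% of those of roots. The libraries were enriched for polyadenylated RNA, so these shares do not measure the organelle's RNA. Of 122 mitochondrial targets 34 were tested, with 8 calls in favour of roots and 2 in favour of the aerial part. Their median was 0.24, and over all genes 33.6% were called higher in roots and 30.8% in the aerial part. Markers of organs that should be absent were at or near 0. None of the 7 flower markers had enough counts to test, with a summed level of 3.03 to 3.22 CPM in the aerial part and 0.635 to 1.69 CPM in roots, and the 6 seed storage genes had no count in either organ.

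The same organ comparison could be made in the libraries labelled psp1, which share none with those above. PSP itself, the gene of phosphoserine phosphatase, was not at a lower level in the aerial libraries so labelled: it had 75.2 CPM in the aerial part and 130.2 CPM in roots of wild type, and 384 and 105 CPM in the libraries labelled psp1. CPM were scaled within each genotype apart, so levels of the genotypes here and below do not share a scale. Titles of wild-type libraries begin with WT, and those of the libraries labelled psp1 with HS. Those libraries were also shallower, with 3627193 to 5873935 counts. Their coefficient of biological variation was larger, at 27.6% in the aerial part and 19.3% in roots, against 11.4% and 15.1% in wild type. Of 17344 genes tested there, 8615 (49.7%) differed between the organs. Across 17125 genes tested in both genotypes, the organ differences correlated at 0.939, a description over genes that are not independent. Of 4264 genes called at least 4-fold apart in wild type and tested in the libraries labelled psp1, 4048 (94.9%) were called in the same direction there, and 1 in the opposite one. Of 11064 genes called in wild type at any fold and tested there, 36 were called in the opposite direction. The photosystem list had the same call there for all 35 members called in wild type, the chlorophyll list for all 16 and the endodermis list for 22 of 24. The shares were lower for shoot regulators (12 of 15), the clock (8 of 11), reference genes (7 of 10), root hairs (9 of 14) and cytokinin genes (3 of 8), where members not tested in the libraries labelled psp1 count as without the call.

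A difference in the organ effect between the genotypes was tested as an interaction in edgeR's quasi-likelihood model over all 12 libraries, and 315 of 18759 genes (1.68%) were called. Of the 355 list members tested in both genotypes 21 were among them. In wild type ARR4 was -1.60 on the log2 scale, higher in the aerial part, and in the libraries labelled psp1 0.02, an interaction of 1.70 (adjusted p = 0.000492). GPT1 and GLU2, higher in roots in both, had wider differences in the libraries labelled psp1, 2.68 and 2.74, than in wild type, 1.37 and 1.68. FRO2 differed by 3.09 in wild type and 6.54 in the libraries labelled psp1, with aerial means of only 1.06 and 0.317 CPM. The genes with the smallest interaction p in each direction were EMB1030, a tRNA synthetase, G3Pp1, a glycerol phosphate transporter family member, and AT2G39980, an acyltransferase family protein, and in the other direction CYP81D11, THA1, a threonine aldolase, and PSP. THA1 had 87.5, 54.3 and 49.6 CPM in the wild-type aerial part and 21.2, 11.2 and 16.3 CPM in wild-type roots, a difference of -1.98 ± 0.36. In the libraries labelled psp1 its means were 168 CPM in the aerial part and 1.08 CPM in roots.

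**Figure D4:**
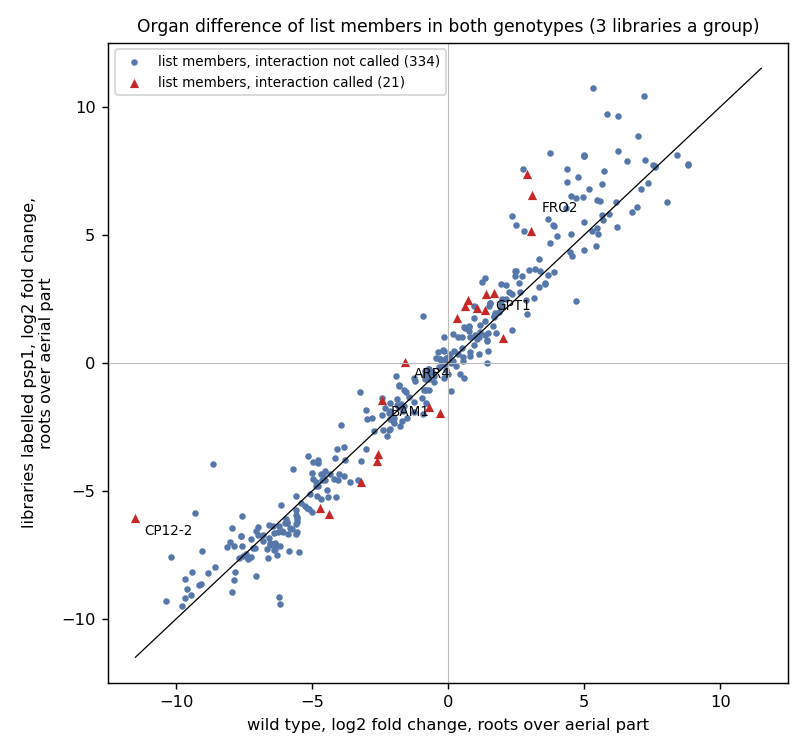
Log2 fold change of roots over the aerial part of 355 gene list members in wild type (horizontal axis) and in the libraries labelled psp1 (vertical axis), from 3 libraries a group; the diagonal marks equal organ differences. Red triangles are the 21 members whose interaction was called. Members without that call also lie off the diagonal in places, such as IRT1 at 5.33 in wild type and 10.72 in the libraries labelled psp1. IRT1 had no count in the aerial libraries labelled psp1, so its value there depends on the prior count and is no measure of size.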

How the data were processed

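Per the labels' protocols, RNA enriched for poly(A) was read by the authors from one end, 75 nucleotides a read, on the SOLiD 5500XL platform. Per the submitters' processing notes, tools included kallisto 0.43.0 and R 3.3.2. The authors deposited estimated counts and TPM for 27416 coding sequences named TAIR10. Kallisto divides reads that match several targets, and no strand rule is stated, so near copies and overlapping genes are uncertain. Gene names and coordinates came from TAIR10.1 by locus tag (97.5% of loci matched).

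Estimated counts were rounded and tested in edgeR 4.0.16 (R 4.3.3) with TMM factors (0.832 to 0.846 in the aerial part, 1.18 to 1.21 in roots), its default filter and a dispersion from the classic mode, by the exact test with Benjamini-Hochberg adjustment, on the 6 wild-type libraries. The SE used log2 CPM with a prior count of 2. Limma 3.58.1 gave the intervals of reference genes, from the residual spread of all genes, and DESeq2 1.42.0 served as an alternative. Ratios with 1 to 3 counts in an organ carry 95% counting intervals; these, and the floor of 3 counts, cover counting error only. On simulated counts of 17886 genes, the exact test found 74% of true 2-fold changes and 97% of true 4-fold changes. Of its 176 calls, 5 (2.84%) were false. The simulation changed few genes, balanced between the directions and none of low mean level. It therefore did not cover the many wide differences between these organs, their scaling, or genes with almost no counts in an organ.

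The comparison, the 22 gene lists (442 loci) and the rule for naming genes were chosen with earlier results of these data known. The rule took, in each direction, the 10 largest differences at 200 CPM or more without overlap and the 10 highest levels among genes at least 16-fold apart. It took up to 5 called members of each list with the largest differences and at least 50 counts in the higher group, all called against their list's majority, and all members of the plastid form and reference lists. It also took the neighbour runs, 3 interaction genes a direction and 10 regulators. Genes named outside it, including members not called or not tested, were chosen after their values were seen. Of the genes this rule takes, 2 are not reported here.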

Additional observations from a re-analysis of the deposited data

Results flagged for a closer look

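For 15 of the 203 named genes tested, the organ difference itself differed between wild type and the libraries labelled psp1. The test was edgeR's quasi-likelihood test of the interaction over 12 libraries, with Benjamini-Hochberg adjustment. Over all genes 1.68% were called. EMB1030, G3Pp1, AT2G39980, CYP81D11, THA1 and PSP were named for their small interaction p, so their calls follow from that choice. Values are the organ difference in the libraries labelled psp1 minus that in wild type, on the log2 scale. Positive values belonged to CP12-2 (5.16, adjusted p = 0.00618), FRO2 (3.54, 0.00542), AT2G39980 (3.41, 8.94e-07), EMB1030 (2.83, 9.94e-08) and G3Pp1 (2.77, 2.33e-07). Smaller positive values belonged to ARR4 (1.70, 0.000492), GPT1 (1.38, 0.00186), NIA2 (1.33, 0.000283), GLU2 (1.14, 0.000518), BAM1 (1.06, 0.00331) and GLT1 (0.79, 0.00533). Negative values belonged to THA1 (-5.11, 3.77e-06), CYP81D11 (-2.72, 9.18e-07), PSP (-2.60, 9.64e-06) and AT1G74470 (-1.12, 0.00137). For CP12-2, the wild-type roots had no count, so its fitted value depends on the prior count and is no measure of size. CYP81D11 changed the direction of its organ difference, from 1.54 in wild type to -1.26 in the libraries labelled psp1, and PSP from 0.79 to -1.88. The libraries labelled psp1 were shallower and more variable in each organ, and the part of depth or variation in these values was not tested.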

How the results depend on the processing

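Of the wild-type organ difference, counts of calls in either direction stayed within 1.5 times under the quasi-likelihood test, DESeq2, RLE factors, no filter and without organelle genes; with library totals, calls higher in the aerial part were 3663. Each library left out in turn gave 5679 to 6123 calls higher in roots and 5314 to 5522 in the aerial part, and 2595 to 2742 and 2297 to 2350 at 4-fold or more. In the libraries labelled psp1, calls higher in roots were 7137 with library totals, and leaving out a library gave 3710 to 4620 in roots and 3697 to 4200 in the aerial part, with 2342 to 2749 and 2104 to 2265 at 4-fold or more. DESeq2 called 828 interactions, and leaving out a library 136 to 374, with 170, 136 and 194 without wild-type aerial library 1, 2 and 3. In their deviations from the organ means, same-numbered wild-type libraries of the organs correlated at 0.024, 0.109 and 0.150. Libraries of unlike number correlated at -0.136 to 0.028. Whether the numbers pair the libraries was left undecided, and the main test used no pairing. With the replicate number as a block, calls were 5912 in roots and 5502 in the aerial part (2534 and 2249 at 4-fold or more). The block gave 3438 and 3589 calls in the libraries labelled psp1 (2080 and 2030), and 291 for the interaction. Of 203 named genes, 192 kept direction and call with library totals; GL2, SHV3, KCS20, AT4G26410, UBQ10, AT4G34270 and TUB4 lost the call and AT5G60390 gained it. The log2 differences of AT5G17630, PP2AA3 and ACT8 then reversed to 0.0510, 0.31 and 0.35, and the limma estimates of PP2AA3 and ACT8 to 0.30 and 0.35. UBC21 reversed to -0.01 without wild-type aerial library 1 and to -0.17 without root library 2. MON1 lost its call without aerial library 1. Among genes at least 16-fold higher in roots, CACGTG was in 5.005% of windows, and at 4-fold or more there were 12 neighbour runs in roots and 4 in the aerial part. With the replicate block, 2 mineral carriers were called higher in the aerial part. The cause of these changes was not tested. Genes with few counts, such as the 13 untested root hair genes, could not be compared at this depth.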

Other observations

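Families grouped by their annotated product were counted as well; those given were chosen after their counts were seen, and some hold list members. Of 79 tested genes with a Cys/His-rich C1 domain 63 were at least 4-fold higher in roots, with a median log2 difference of 4.11, and of 49 tested peroxidases 36, with a median of 4.19; 14% of all genes tested were. In roots were also 11 of 23 hydroxyproline-rich glycoproteins of the late embryogenesis abundant type, 10 of 20 inhibitors of pectin methylesterase and 16 of 35 transporters of the nodulin MtN21 type. At least 4-fold higher in the aerial part were 18 of 37 GDSL lipases, 13 of 31 thioredoxin superfamily proteins and 10 of 23 coiled-coil resistance proteins; 12.3% of all genes tested were. Auxin-responsive SAUR-like genes were divided, with 13 of 30 in the aerial part and 7 in roots. Proteins annotated as the pentatricopeptide repeat (PPR) superfamily, which edit and process organelle RNA, numbered 179 tested. Of these 11 (6.15%) were at least 4-fold higher in the aerial part and none in roots, both under the shares of all genes. Of 31 tested genes annotated as PPR-like, 5 were at least 4-fold higher in the aerial part and 1 in roots. Members of a family may share reads, and no test was made over families.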
